A study of Drosophila melanogaster with 3 samples.

Results

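Translation initiation factor genes encode the proteins that bring an mRNA, a small ribosomal subunit and the initiator tRNA together and that set the ribosome on its start codon. They were taken here as every annotated Drosophila melanogaster gene whose symbol begins with eIF, which gave 44 of the 18164 genes annotated by Ensembl on the major chromosome arms. All 44 are protein-coding. Their promoters were read for chromatin peaks of the CG17361 protein, in a transgenic line with CG17361 fused to eGFP, an enhanced green fluorescent protein, using whole embryos aged 0 to 24 hours. CG17361-eGFP was pulled down with an antibody to GFP from chromatin sheared by sonication to 200 to 800 bp, and the precipitated DNA was sequenced (ChIP-seq). The 3 libraries are labelled biological replicates 1, 2 and 3 of 1 group, and the labels give neither the developmental mix within the collection nor the level of the tagged protein against the untagged one. The embryos were used whole, so a peak cannot be placed in a cell type. There was no second group, so the results describe occupancy and no difference between conditions was tested.

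A gene was counted as bound when the summit of a peak, its highest point, lay within 500 bp of one of its annotated transcription start sites (TSSs). The main list was the conservative thresholded list, in which replicates 1 and 3 had been compared by the irreproducible discovery rate (IDR), a measure of how well the ranks of peaks repeat. Each replicate also had a thresholded list of its own and a longer ranked list that kept peaks short of the IDR limit of 0.01. Peak signals are the authors' scores on an unstated scale, so they are compared only within 1 list. Depth is unknown, since no read counts accompany the lists.

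Initiation proceeds in a fixed order. The eIF4 group reads the cap of the mRNA and unwinds its leader, eIF3 forms a scaffold on the small subunit, and eIF2 carries the initiator tRNA and is recharged by eIF2B. eIF1 and eIF1A hold the scanning ribosome open, eIF5 and eIF5B act when the start codon is met and the large subunit joins, and eIF6 keeps free large subunits from joining early. Almost all growing cells need these proteins, and the early fly embryo relies on control of translation because its first mRNAs are supplied by the mother.

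The DNA under 8 summits is printed as examples of A and T rich and of mixed windows, and of the promoter word found at several summits. The 8 do not span the full range of base composition: eIF3a, the highest in GC at 50.5%, is not among them. Each is the summit base with 50 bases to either side, read 5′ to 3′ on the strand of the initiation factor gene from the release 6 (dm6) genome as held by RefSeq. Capitals mark the longest unbroken run of A and T, or the first where runs are equally long, as in eIF5 and eIF3f1. The window of eIF1, at chr3L:3223015-3223115 on the plus strand, also holds TATCGATA, the DNA replication-related element. The window of eIF3l, at chr3L:12146103-12146203 on the minus strand, holds the same element near its end. The windows of eIF2D at chr3R:29151862-29151962, eIF5 at chrX:15992127-15992227, eIF4G1 at chr4:930772-930872 and eIF4EHP at chr3R:24109142-24109242, all on the minus strand, are the richest in A and T of the 8 shown. Their GC content runs from 18.8% to 26.7%, and that of eIF3l is next among the 8 at 28.7%. The windows of eIF1A and eIF2Bbeta, not shown, are at 24.8% and 27.7%. Those of eIF3h at chr2L:5052450-5052550 and eIF3f1 at chr3R:4714205-4714305, both on the minus strand, have the shortest runs shown, 6 bases each.
eIF1: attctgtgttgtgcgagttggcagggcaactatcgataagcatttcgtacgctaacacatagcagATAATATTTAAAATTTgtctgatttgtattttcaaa
eIF3l: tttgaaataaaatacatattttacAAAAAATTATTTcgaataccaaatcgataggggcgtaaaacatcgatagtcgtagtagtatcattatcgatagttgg
eIF2D: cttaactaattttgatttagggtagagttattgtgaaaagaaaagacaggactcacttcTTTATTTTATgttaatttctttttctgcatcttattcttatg
eIF5: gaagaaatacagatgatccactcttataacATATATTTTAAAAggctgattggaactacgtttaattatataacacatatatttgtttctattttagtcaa
eIF4G1: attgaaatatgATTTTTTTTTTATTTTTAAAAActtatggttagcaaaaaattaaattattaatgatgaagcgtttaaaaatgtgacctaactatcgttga
eIF4EHP: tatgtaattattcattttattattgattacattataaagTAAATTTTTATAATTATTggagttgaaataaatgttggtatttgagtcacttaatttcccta
eIF3h: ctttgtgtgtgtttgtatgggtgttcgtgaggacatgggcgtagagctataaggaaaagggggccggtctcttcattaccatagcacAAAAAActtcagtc
eIF3f1: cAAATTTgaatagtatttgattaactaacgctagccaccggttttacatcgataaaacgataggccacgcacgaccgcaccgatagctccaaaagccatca

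In the conservative list 17 of the 44 initiation factor genes were bound, 38.6%, against 22.3% of all 18164 genes and 26.4% of the 13945 protein-coding genes. That count rests on the pair of replicates compared. The list of replicates 2 and 3 held 6, 13.6% against 13.5% of all genes and 16.2% of protein-coding genes. The list of replicates 1 and 2 held the same 6, against 15.7% and 18.7%. In both lists the share of initiation factor genes was thus below that of protein-coding genes. Replicate 1's own list held 13 of them, 29.5%, against 19.3% of all genes. Replicate 3's list held 11, 25%, against 18.3%. In replicate 2, which has the shortest list at 3797 peaks against 5942 and 5576 in the others, 6 were bound, 13.6% against 13.4% of all genes. The share of initiation factor genes was therefore above the genome's in replicates 1 and 3 and level with it in replicate 2. In the replicates' own lists the background was counted over all genes only, not over protein-coding genes. Over the replicates the share was 22.7% ± 8.19 (SD, n = 3) for initiation factor genes and 17.04% ± 3.15 (SD, n = 3) for all genes. The gap between these means is smaller than the larger of the SDs. Both shares come from the same lists and were lowest in the shortest, so the SDs do not measure the spread of the gap. The 6 genes bound in replicate 2 were also bound in both of the others, which makes 6 of 44 bound in all 3 replicates, 13.6% against 10.9% of all genes. They were eIF1, eIF2D, eIF3h, eIF3m, eIF5B and eIF6. Of the 17 genes in the conservative list a further 3 were bound in 2 replicates, 5 in 1 and 3 in none, where of all 4055 bound genes 47.9% were bound in all 3, 21.5% in 2, 16.2% in 1 and 14.4% in none.

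**Figure D1:**
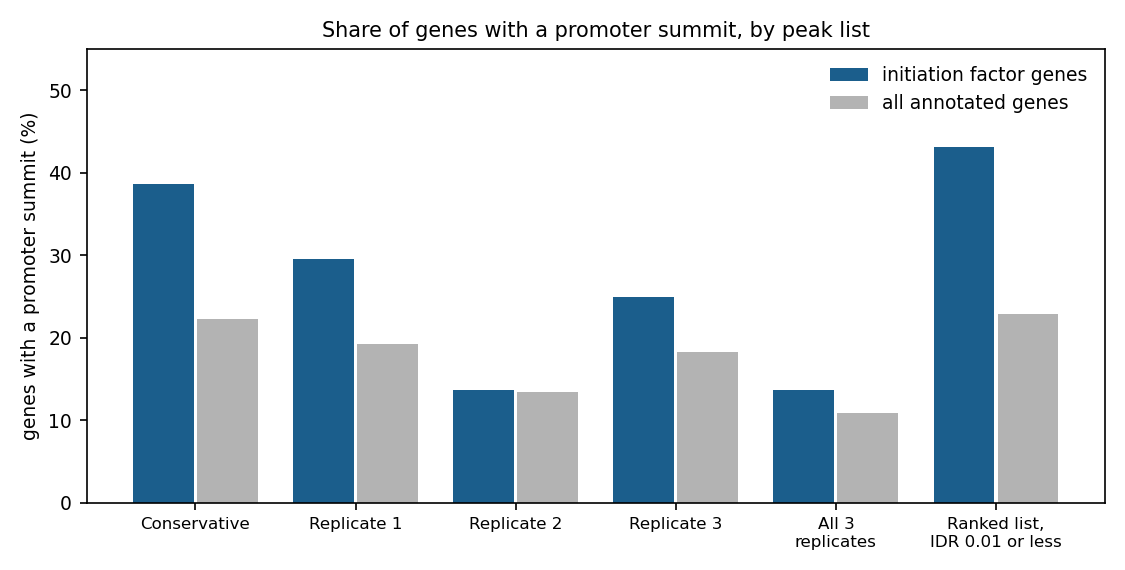
Bars give the percentage of genes with a peak summit within 500 bp of a TSS (vertical axis) in each peak list (horizontal axis), blue for the 44 initiation factor genes and grey for all 18164 annotated genes. The blue bar reaches 38.6% in the conservative list against a grey bar of 22.3%, and the bars are almost level in replicate 2 at 13.6% and 13.4%.

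Of the factors that choose the start codon and join the subunits, all 4 (eIF1, eIF1A, eIF5 and eIF5B) were in the conservative list and in replicate 1, where 22.3% and 19.3% of all genes were. Replicate 2 held 2 of the 4 and replicate 3 held 3, beside 13.4% and 18.3% of all genes. eIF1, which keeps the scanning ribosome from stopping at the wrong codon, had a conservative signal of 650.3, rank 392 of 7804 peaks, at chr3L:3222840-3223478. Its strongest replicate signals were 268, 188 and 216 in replicates 1, 2 and 3, which ranked 291, 311 and 588 in their lists. Its summit lay 276 bp upstream of the eIF1 start and only 105 bp from the start of RpL28, a large-subunit ribosomal protein gene that runs the other way, so the peak cannot be given to 1 of the pair. Replicates 1 and 2 each held a second summit closer to eIF1, with a signal of 175 at 27 bp and of 87.7 at 102 bp.

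eIF5B, the GTPase that joins the subunits, had a conservative signal of 318 at chr3L:3460534-3460952. Its replicate signals were 120, 103 and 92.5, and its strongest summit lay 110 bp upstream of the nearest eIF5B start, inside a non-coding exon of a longer eIF5B transcript. eIF5, which makes eIF2 hydrolyse its GTP, had 316 in the conservative list at chrX:15991872-15992481. Its summit lay 203 bp upstream of a start it shares with CG46312, and 291 bp from the start of exd on the other strand. The peak therefore cannot be given to eIF5 alone. eIF5 was bound in replicate 1 at 168 and replicate 3 at 92.8, while replicate 2 had no summit at its promoter even among ranked peaks. eIF1A, the partner of eIF1, had a conservative signal of 191, 118 bp upstream of its start and nearer still to the start of Vps39 on the other strand. It was past the limit in replicate 1 at 93.3 and was ranked short of it in replicate 2 at 31.5 and replicate 3 at 63.7.

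eIF6, which holds large ribosomal subunits apart from small ones, had the highest conservative signal of the 17 genes, 656 at rank 381, at chr2R:23850190-23850621. Its replicate signals were 167 at rank 1173 of 5942 peaks in replicate 1, 266 at rank 79 of 3797 in replicate 2 and 221 at rank 549 of 5576 in replicate 3. All 3 were above the median of bound genes in their own list. The summit lay 114 bp upstream of the eIF6 start and 85 bp from the start of an antisense RNA, asRNA:CR45928, and within an intron of ytr.

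Within eIF3, the scaffold of the small subunit, 6 of 16 genes were bound in the conservative list. That is 37.5%, beside 22.3% of all genes and 26.4% of protein-coding genes. Replicate 1 held 5 of the 16 and replicate 3 held 4, 31.25% and 25% beside 19.3% and 18.3% of all genes. Replicate 2 held 2, 12.5% beside 13.4%, so eIF3 was not above the genome there. eIF3c, a core subunit, had 552 at chr2R:17665431-17665860 with its summit 9 bp upstream of the start, the closest of the 17 genes. It had 227 in replicate 1 and 174 in replicate 3 and, despite that strength, no promoter summit in replicate 2, ranked peaks included. eIF3m had a conservative signal of 412 and replicate signals of 189, 96.9 and 134, above the median of bound genes in replicates 1 and 3 and a little below it in replicate 2. Its summit was 37 bp upstream, and the start of CG8323 on the other strand was 189 bp away.

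eIF3h was the other eIF3 gene bound in all 3 replicates. Its conservative signal was 337 at chr2L:5052326-5052630, and its replicate signals were 127, 81.9 and 135. Its strongest summit lay 280 bp inside the gene, in an intron, and 343 bp from the start of senju on the other strand. A second conservative peak of 247 stood 76 bp from an eIF3h start. The replicate signals belong to summits 269, 318 and 76 bp from a start in replicates 1, 2 and 3. They are therefore not shown to be the same peak. eIF3a, the largest subunit, had a conservative signal of 233 with 94.5 in replicate 1 and 86.2 in replicate 3 and nothing in replicate 2; the summit was 4 bp from the start of CG1074 on the other strand.

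eIF3l and eIF3f1 were the weakest eIF3 genes in the conservative list. eIF3l had 149, with 96.7 in replicate 1, a ranked peak of 51.7 just short of the limit in replicate 3 and none in replicate 2. eIF3f1 had 174 without passing in any single replicate: its ranked signals were 47.1, 41.8 and 80.2 at a −log10 IDR of 1.60, 0.855 and 1.71, each below the limit of 2. Among the rest of eIF3, eIF3b, eIF3f2 and eIF3j had ranked peaks short of the limit in the series list, eIF3d1 and eIF3k had one in the ranked list of replicate 2 alone, and eIF3d2, eIF3e, eIF3g1, eIF3g2 and eIF3i had none.

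Of eIF2 and the other carriers of initiator tRNA, 2 of 5 genes were in the conservative list. That is 40%, beside 22.3% of all genes and 26.4% of protein-coding genes. Replicates 1, 2 and 3 held 1, 1 and 3 of the 5. These shares were 20%, 20% and 60%, beside 19.3%, 13.4% and 18.3% of all genes. eIF2D, which can deliver the tRNA in place of eIF2 and helps recycle ribosomes, had 327 at chr3R:29151757-29152062, 118 bp upstream of its start, with no other gene's start within 500 bp. Its replicate signals were 113, 64.7 and 147. eIF2beta, a subunit of eIF2, had a conservative signal of 172 with the summit 25 bp inside its first exon, and passed in replicate 3 alone at 114; replicate 1 had a ranked peak of 62.4 and replicate 2 none. The other subunits of the same complex, eIF2alpha and eIF2gamma, had no summit in the series ranked list, and each had a single weak ranked peak, of 24.7 in replicate 3 and of 13.1 in replicate 1. eIF2A, another tRNA carrier, passed in replicate 3 alone at 82.2, with ranked signals of 21.6 and 17.7 in replicates 1 and 2, and was not in the conservative list.

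In eIF2B, the exchange factor that recharges eIF2, 1 of 5 genes was bound, 20% beside 22.3% of all genes, and none in any replicate's own list. This was eIF2Bbeta, with a conservative signal of 226 whose summit lay 475 bp upstream, the farthest of the 17, and 244 bp from the start of Ugalt on the other strand. It was the gene closest inside the 500 bp limit; the closest outside was eIF3d1, whose nearest conservative summit, of signal 672, lay 1307 bp from its start. eIF2Bgamma had a ranked peak of 48.8 short of the limit, and eIF2Balpha, eIF2Bdelta and eIF2Bepsilon had no promoter summit in the lists examined.

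**Figure D2:**
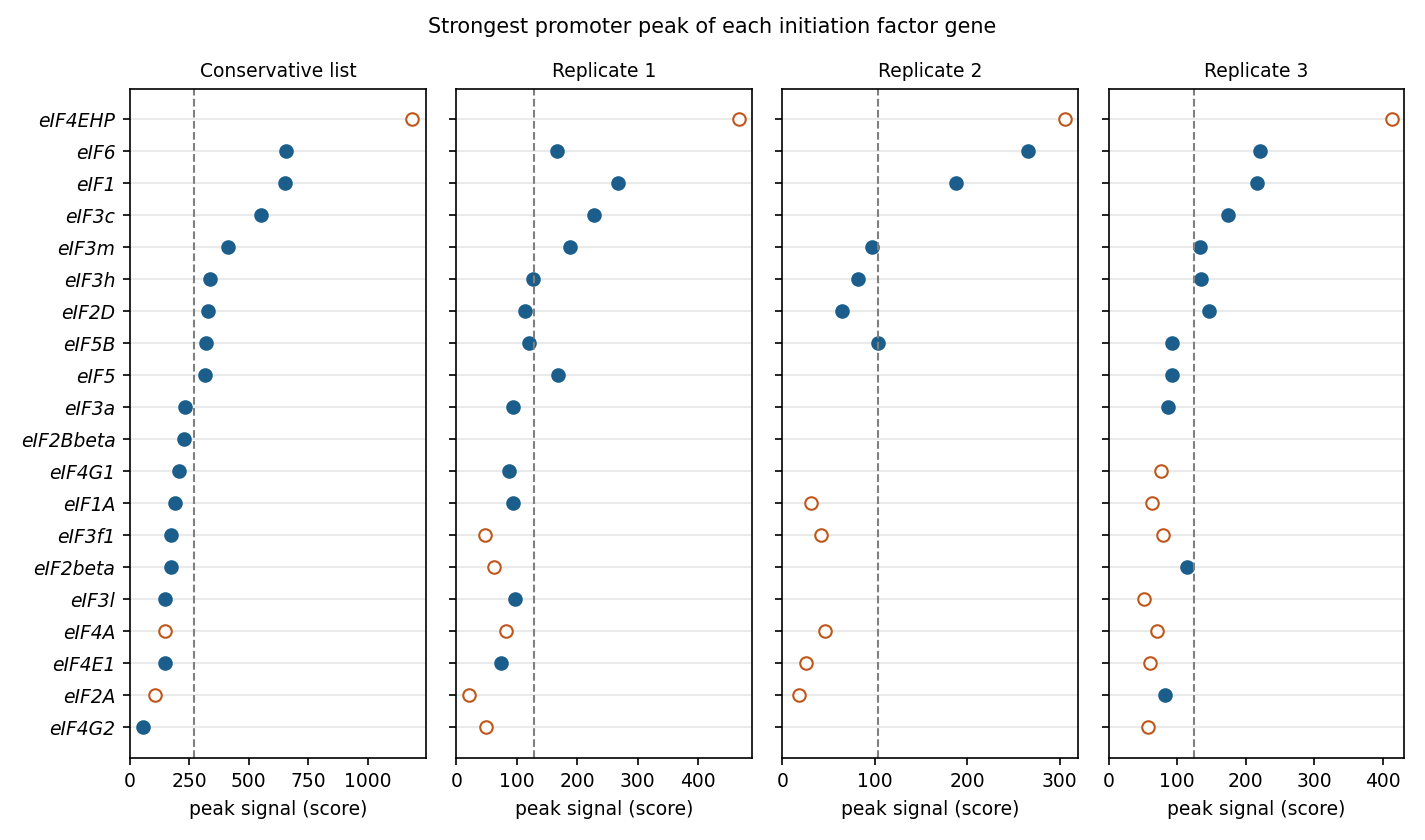
Each row is an initiation factor gene and each panel a peak list, with the authors' peak signal (a score, on a different scale in each panel) on the horizontal axis. Filled points are thresholded peaks, open points are peaks found only in a ranked list, and the dashed line is the median over all bound genes of that list. eIF4EHP is an open point and the farthest right in every panel, though in replicate 2 it is at 306 with eIF6 at 266.

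Within eIF4, the cap-binding and unwinding group, 3 of 13 genes were in the conservative list. That is 23.1%, a share close to the 22.3% of all genes and below the 26.4% of protein-coding genes. Replicate 1 held 2, 15.4% beside 19.3%, and replicates 2 and 3 held 0, beside 13.4% and 18.3%. eIF4G1, the scaffold between cap and ribosome, had 205 on chromosome 4, 107 bp upstream of its start. It passed in replicate 1 at 86.6 and had a ranked peak of 77.0 in replicate 3. eIF4E1, the main cap-binding protein, had 146, 68 bp inside the gene in a non-coding exon. It passed in replicate 1 at 74.7, with ranked peaks of 25.3 in replicate 2 and 60.6 in replicate 3. eIF4G2, a relative of eIF4G1 used in male germ cells, had the lowest conservative signal of the 17, 54.8 at rank 7547, at a start it shares with CG33111, and passed in no replicate. The additional cap-binding genes eIF4E3, eIF4E4, eIF4E5, eIF4E6 and eIF4E7 had no promoter summit in the lists examined, and neither did eIF4H2. eIF4H1 and eIF4B, helpers of the helicase, had ranked peaks short of the limit, eIF4H1 by little at a −log10 IDR of 1.94.

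The strongest peak at any initiation factor promoter was outside the thresholded lists. eIF4EHP, a cap-binding protein that cannot bind eIF4G and represses maternal mRNAs such as caudal and hunchback in the early embryo, had a ranked signal of 1188.71 at chr3R:24108865-24109486, the second highest of the series list. Its ranked signals in replicates 1, 2 and 3 were 467, 306 and 414, at ranks 1, 24 and 9, and each had a −log10 IDR of 5. All replicates therefore placed it among their strongest peaks, and none of their thresholded lists held it. The summit lay 232 bp upstream of eIF4EHP and 144 bp from the start of CG18428 on the other strand. eIF4A, the helicase that unwinds the leader, was the other such gene. It had a ranked signal of 148 at a −log10 IDR of 2.63 in the series list, and 82.3, 46.0 and 70.7 in the replicates, of which only the first passed the limit. These strongest summits lay 47 bp from an eIF4A start in the series list and 321, 260 and 9 bp in replicates 1, 2 and 3. They are therefore not shown to be the same peak.

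With these 2 genes the ranked list past the same limit held 19 of 44 initiation factor genes. That is 43.2%, against 22.9% of all genes and 27.1% of protein-coding genes. In the whole series 149 of 7953 ranked peaks past the limit, 1.87%, were absent from the conservative list, 1 of them among the top 20. For 98 genes, 2.36% of those bound in the ranked list, this left no thresholded promoter summit. The step that left them out is not given in the sources used here. Counting ranked peaks of any IDR, 26 of 44 initiation factor genes had a promoter summit, against 41.6% of all genes.

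**Figure D3:**
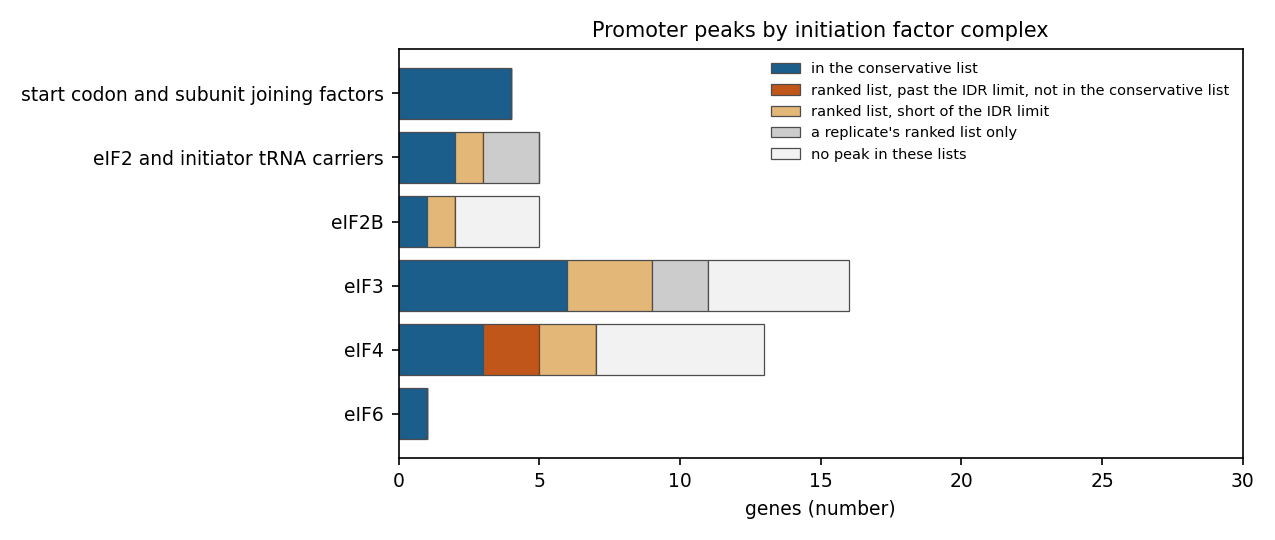
Bars count the genes of each initiation factor group (horizontal axis, number of genes), coloured by the list that holds their promoter summit. The 4 start codon and joining factors and eIF6 are wholly in the conservative list, while eIF2B and eIF4 have 1 of 5 and 3 of 13 there.

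By strength the bound initiation factor genes did not stand above other bound genes. Their median conservative signal was 233, with a range from 54.8 to 656, against a median of 271 for all bound genes. The medians were 120 against 128 in replicate 1, 100.1 against 103 in replicate 2 and 134 against 125 in replicate 3. Each of these gaps is small beside the spread among the genes, whose middle 50% ran from 177 to 437 for all bound genes in the conservative list.

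Summits sat close to the starts. The median distance over the 17 genes was 110 bp, from 9 to 475, against 175 bp for all bound genes. They lay upstream of the nearest own start in 14 of 17 genes, 82.4% against 86.0%, the exceptions being eIF3h, eIF4E1 and eIF2beta. The annotation put 11 of the 17 summits between genes and 6 in a gene: 4 within their own initiation factor gene (eIF2beta, eIF3h, eIF4E1 and eIF5B) and those of eIF4G2 and eIF6 within introns or exons of others. Another gene's start lay within 500 bp of the summit at 10 of 17 genes, 58.8% against 59.1%. The initiation factor gene's own start was the nearest, or level with the nearest, at 12, 70.6% against 70.7%. The level ones were eIF5 and eIF4G2, which share a start with CG46312 and CG33111. The 5 where a neighbour was nearer were eIF1, eIF1A, eIF2Bbeta, eIF3a and eIF6.

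**Figure D4:**
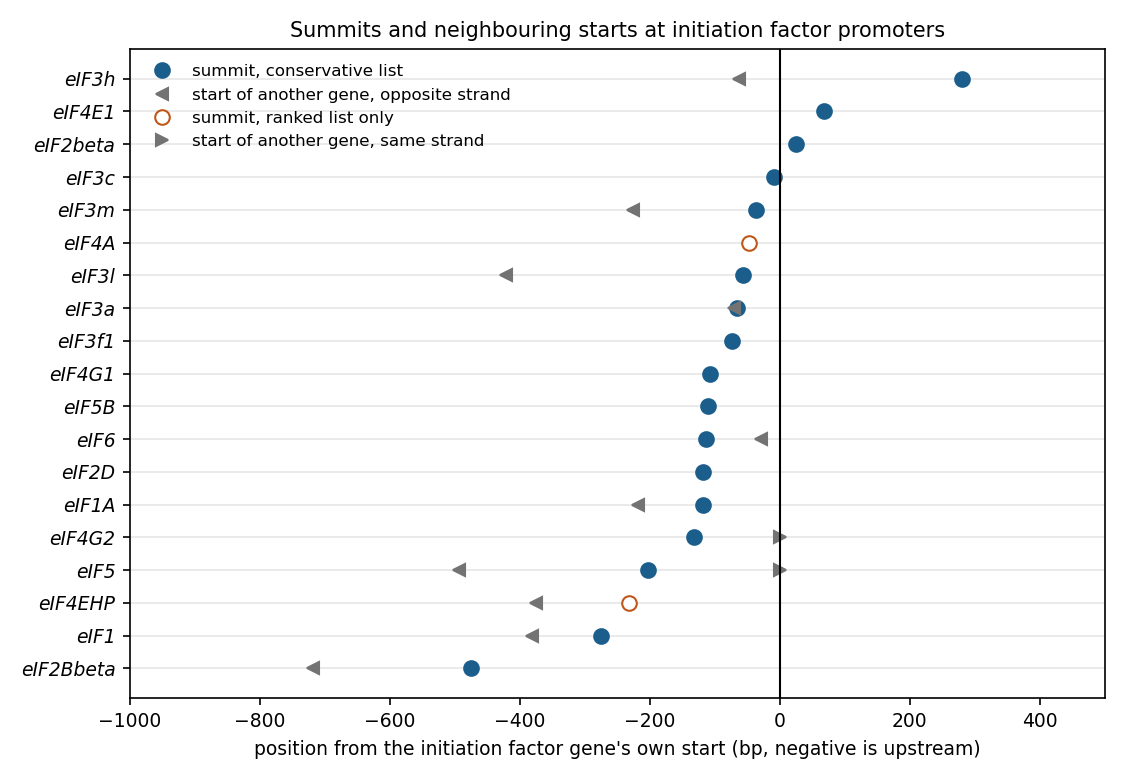
Each row is a bound gene with its own start at 0 and distance in bp on the horizontal axis, upstream to the left; circles are the strongest summits and triangles the starts of other genes near them. Most summits lie between the start and 132 bp upstream of it, with eIF2Bbeta at −475 bp and eIF3h at 280 bp at the ends.

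Genes with more starts had more chances to be counted. Of the 29 initiation factor genes with a single TSS, 9 were bound, 31.0%, and of the 15 with more, 8 were, 53.3%. The same shares were 20.5% and 42.8% among protein-coding genes, so genes with more starts were bound more often in both sets. Away from promoters, peaks inside the gene body were found in 2 of 44 initiation factor genes, 4.55% against 7.12% of all genes. eIF5B held 5, the strongest of 421 at 27770 bp from the nearest start, and eIF4EHP held 3, the strongest of 206 at 9774 bp.

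Base composition was lower in GC at the summits than in the mean of their flanks. Within 50 bp of the 17 summits GC content averaged 35.5%, from 19.8% at eIF4G1 to 50.5% at eIF3a, against 42.5% in the windows 250 bp to either side. It was below its own flanks at 14 of 17 genes, 82.4%, and above them at eIF2beta, eIF3a and eIF4E1. Over all 3603 promoter peaks the values were 33.1% and 41.9%, with 74.2% below their flanks, so a low GC content at the summit was also found over the whole list. The flanks differed from each other. On the gene's strand the 17 genes averaged 39.6% ± 12.99 (SD over genes) upstream and 45.4% ± 10.9 downstream, beside 35.5% ± 8.92 at the summit. The summit was below the upstream window at 9 of 17 genes, below the downstream window at 13 and below both at 8, 47.1%. Over all 4055 bound genes it was below both at 65.7%, with means of 31.4% at the summit, 40.8% upstream and 44.2% downstream. A dip with a rise on both sides was thus seen at fewer than 1 in 2 of the initiation factor promoters. In the replicates' own lists the average was 35.7% ± 3.18 (SD, n = 3) at the summits and 44.04% ± 3.81 in the flanks, over 13, 6 and 11 genes. The eIF4EHP window was 18.8% GC against 41.1% in its flanks. At the starts themselves bound and other initiation factor genes had the same median, 42.6%.

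**Figure D5:**
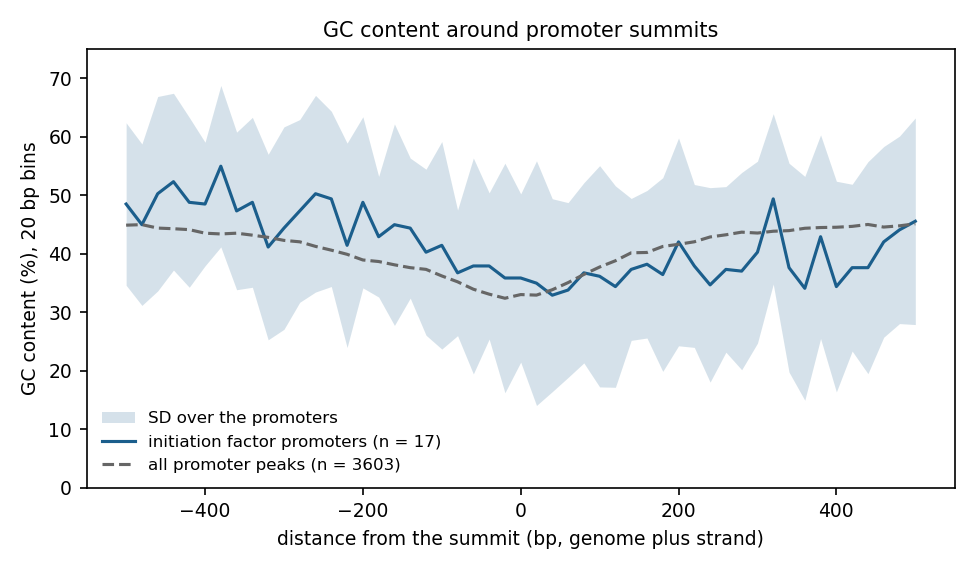
GC content in 20 bp bins (vertical axis, percent) against distance from the summit (horizontal axis, bp along the genome's plus strand, whatever the gene's strand), averaged over the 17 initiation factor promoters (blue, shading is the SD over promoters) and over all 3603 promoter peaks (dashed grey). The grey line is lowest near the summit and rises to both sides; the blue line falls towards the summit from the left but stays low on much of the right, 34.7% at 240 bp and 34.1% at 360 bp against 35.9% at the summit, within a wide SD.

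Short words were then counted within 50 bp of the summits on both strands. TATCGATA was present at 3 of 17 initiation factor summits (eIF1, eIF3a and eIF3l), 17.6% against 3.36% of all 3603 promoter summits. Each of these 3 summits also had another gene's start within 500 bp on the other strand. RpL28 lay 105 bp from the eIF1 summit, CG1074 4 bp from that of eIF3a and Nrx-IV 366 bp from that of eIF3l. The word therefore cannot be given to the initiation factor genes alone. CGATA, a part of TATCGATA, was present at 5 summits (those 3, eIF3f1 and eIF4G1), 29.4% against 19.3%. GGTCACAC, a core promoter word, was present at eIF2beta only, against 1.83% of all. GAGAG was at eIF3c only, against 8.27%, and CAGCTG at none of the 17, against 3.64%. The A and T words ATATTTTA (eIF3l and eIF5) and TTTAAAAA (eIF4G1) were at 11.8% and 5.88%, against 5.97% and 8.02%. The longest run of A and T had a median of 12 bases, from 5 to 22, against 8 in the flanks, and 10 and 8 over all promoter peaks. With 17 windows each count rests on few genes.

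At the starts of all 44 genes, core promoter words were read on the gene's strand. TATAAA began between 40 and 15 bases upstream of a start in 3 genes, eIF4E6, eIF4E7 and eIF4H2, 6.82% against 9.81% of protein-coding genes, and none of the 3 was bound. TCAGT, an initiator word, lay within 5 bases of a start of eIF2gamma only, 2.27% against 15.04%. CTTT, a short stretch of the TCT initiator of ribosomal protein genes, was at eIF3f1, eIF3i, eIF3m and eIF4A, 9.09% against 8.07%.

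Other translation genes were read the same way from lists drawn up by function, with earlier results of these data known. Tor and Gcn1 matched no annotated gene symbol and were left out. Of 13 elongation and termination factors 9 were bound, 69.2% beside 22.3% of all genes and 26.4% of protein-coding genes. The 9 had a median signal of 304. In replicates 1, 2 and 3 there were 11, 7 and 9 bound, beside 19.3%, 13.4% and 18.3% of all genes. Those in the conservative list included eRF3 at 657 and eRF1 at 429, which end translation, and eEF1gamma at 576 and eEF2 at 238, which drive elongation. The eRF3 and eRF1 summits also had the starts of SC35 and Rbbp5 within 500 bp, so neither peak can be given to 1 gene. The summits of HBS1 and pix, also bound, had another gene's start near them too. Of 23 regulators and partners of initiation 13 were bound, 56.5% beside the same 22.3% of all genes, with a median of 214. The replicates held 9, 7 and 12 of the 23, beside the same replicate shares of all genes. Those bound included larp at 271, which binds growth-regulated mRNAs, pAbp at 214, the poly(A)-binding partner of eIF4G, and Thor at 137, the 4E-BP that blocks eIF4E, which passed in no single replicate. The pAbp summit lay 451 bp from a start, near the 500 bp limit. At mxt, crc, MCTS1, Rack1 and Sbds, also bound, another gene's start lay near the summit. cup, 4E-T, kra, Lk6, raptor, S6k, Gcn2 and DENR had no thresholded promoter summit in the conservative list or in any replicate. vas, a germ-line helicase that contacts eIF5B, was outside the conservative list but passed in each replicate's own list, at 77.4, 65.8 and 74.0.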

How the data were processed

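CG17361-eGFP ChIP-seq was read from 14 peak lists deposited for 3 replicates of 1 group. Per the file listings, the authors mapped reads to dm6 and called peaks against a control library; neither aligner nor caller is named in the sources used here. The authors deposited the peak signal as a score and the global IDR as a −log10 value. Every line of the thresholded lists has a −log10 IDR of 2 or more. No counts or depths accompany the lists. The conservative list was matched to replicates 1 and 3 by the input intervals its ranked file records, and 14 columns of values that could not be mapped to a sample were not used. All series-level lists take their intervals from shared alignments, so they are not independent of replicate 2.

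An interval on several lines was counted once, with its strongest summit. Summits were assigned to all genes with a TSS within 500 bp, using the 23998 TSSs of the Ensembl annotation of BDGP release 6, whose coordinates are those of dm6. The same call was run over all 18164 genes to give the background share. Every bound gene, and each gene past the IDR limit in a ranked list, was named by rule. The members and lists were chosen with earlier results of these data known. No test was run, because there is 1 group; replicate spread is given as SD. P-values are therefore not reported, and the labels do not say whether replicates came from separate collections. Scripts used Python 3.11.15, NumPy 2.4.6 and matplotlib 3.10.9, and the assignment was tested on simulated peaks. Alternatives changed the distance limit, the IDR limit, the list, the replicates compared, the assignment rule and the GC window.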

Additional observations from a re-analysis of the deposited data

Results flagged for a closer look

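Peaks at 2 initiation factor promoters lay in ranked lists only and so outside the main list. The eIF4EHP promoter peak had a signal of 1188.71 in the series-level ranked list, past the IDR limit in that list and in all 3 replicates' ranked lists. The eIF4A promoter peak had a signal of 148.012, past the limit in the series-level list and in replicate 1, and short of it in replicates 2 and 3. Why they are absent from the thresholded lists was not tested.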

How the results depend on the processing

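The count of 17 bound genes was 15 at 250 bp, 17 at 1000 bp, 12 at a −log10 IDR of 3, 17 in the pooled list, 19 in the ranked list and 12 with the nearest TSS only. The pooled list gained eIF2A and eIF4H1 and lost eIF3l and eIF4G2. It was 7 for conservative summits covered by a peak of all 3 replicates, wherever those peaks have their own summits; these are the 6 genes with a summit in every replicate plus eIF2Bbeta, whose replicate peaks are centred elsewhere. Across the lists of replicate pairs the range was 6 to 17 genes, a share of 13.6% to 38.6%, a background of 13.5% to 22.3% and a median signal of 233 to 375. The upper count is the list without replicate 2, which is the main list itself and so is no further check. Without replicate 1 and without replicate 3 the count was 6 each time, the same 6 genes (eIF1, eIF2D, eIF3h, eIF3m, eIF5B and eIF6). Those lists held 13.5% and 15.7% of all genes, and 16.2% and 18.7% of protein-coding genes. The share of initiation factor genes was 27.3% at a −log10 IDR of 3 and with the nearest TSS only, and 15.9% with peaks in all 3 replicates. The background share was 16.9% at 250 bp, 26.5% at 1000 bp, 16.1% at a −log10 IDR of 3, 10.5% with peaks in all 3, 16.7% with the nearest TSS and 26.4% over protein-coding genes. Median signal was 316 at 1000 bp, 323 at a −log10 IDR of 3, 337 with peaks in all 3 replicates and 260.3 with the nearest TSS. GC content was 39.1% in replicate 2's list. The causes were not tested. No paired analysis was possible because there is 1 group. Depth is unknown, and a gene's absence from a list does not show that it is unbound.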
